A study of Mus musculus with 8 samples.

Results

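The genes examined were 10 regulators of the G1 phase of the cell cycle: the D-type cyclins Ccnd1, Ccnd2 and Ccnd3, their kinases Cdk4 and Cdk6, the inhibitors Cdkn1a (p21), Cdkn1b (p27), Cdkn2a (p16 and p19ARF) and Cdkn2b (p15), and Rb1, the retinoblastoma protein gene. They were taken by gene symbol from the deposited count table, where all 10 were found among 31894 genes with an identifier, and all 10 passed the filter on low counts that left 13598 genes for testing. The libraries were bulk mRNA of tumor cells sorted from breast cancer brain metastases (BCBM) of 4 mice, numbered 57, 58, 67 and 70 in the labels. From each mouse, E-cadHI cells (labelled Ecad high) and E-cadLO cells (labelled Ecad low) were collected by fluorescence activated cell sorting on an E-cadherin-mCFP reporter, a fluorescent fusion of the epithelial adhesion protein, which gave 4 libraries per group. The host mice of both groups were labelled FVB and wild type, and no treatment was given in the labels. In both groups the tumor cells carried the polyoma middle-T oncogene (PyMT), driven by a mouse mammary tumor virus promoter, and the E-cad-mCFP reporter. They came from organoids made after serial transplantation of PyMT mammary tumors into the brain, so the mice are separate hosts of related tumor cells. The study imaged both sorted populations and checked purity on E-cadHI cells, because E-cadLO cells were too few. The purity of the E-cadLO fraction itself was not measured.

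D-type cyclins accumulate when growth signals arrive and bind CDK4 or CDK6, and the active kinase phosphorylates RB1, which releases E2F transcription factors and lets S-phase genes be transcribed. The INK4 proteins p15 and p16 bind CDK4 and CDK6 directly, whereas p21 and p27 bind cyclin-CDK complexes and restrain CDK2. Cdkn1a is a classical target of p53, and in mammary carcinomas Ccnd1 is a well known driver of proliferation.

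Of the 10 genes, Cdkn1a differed most clearly between the populations. Its mean level was 3.57-fold higher in E-cadLO cells, and it was higher in 4 of 4 mice, by 2.08 on the log2 scale in mouse 67 and by 1.52 in mouse 58. Ccnd2 was also higher in 4 of 4 mice, from a low level. Ccnd1, Ccnd3 and Cdk4 were lower in E-cadLO cells in 4 of 4 mice, by at most 0.69 on the log2 scale. For the other genes the mice did not share a direction. In edgeR's quasi-likelihood test on all 8 libraries with the filter on low counts, only Cdkn1a passed an adjusted p of 0.05. It did so when the mouse was kept as a replicate block and not without it. With the block, 0.728% of all genes tested were called higher in E-cadLO cells and 0% were called lower. Without it, 0% were called in either direction, so no member could stand out by that rule. At an unadjusted p under 0.05, 4 of the 10 genes passed without the block (Ccnd1, Ccnd2, Cdk4 and Cdkn1a), beside 8.16% of all genes tested on the higher and 5.81% on the lower side. With the block 4 passed too, beside 12.3% and 7.33%. A log2 fold change above 0 was seen for 5 of the 10 genes, as for 55.1% of all genes tested.

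The stretches upstream of the transcription start are shown for Cdkn1a, the member called, and for Cdk4, the most abundant member, with matches to known motifs in capitals. They are RefSeq windows on build GRCm38.p6 of 250 bases that end just before an annotated start, on the plus strand, at chr17:29090729-29090978 and chr17:29093519-29093768 for the upstream and the downstream start of Cdkn1a and at chr10:127063285-127063534 for Cdk4. In the Cdkn1a windows the capitals mark the core letters of a p53 response element, which are CATG followed after 6 bases of any kind by CATG again, and the GC box GGGCGG. In the Cdk4 window they mark the E-box CACGTG, the letters bound by MYC and related factors. All motifs were searched on both strands, and the matches shown do not overlap.
Cdkn1a, upstream start: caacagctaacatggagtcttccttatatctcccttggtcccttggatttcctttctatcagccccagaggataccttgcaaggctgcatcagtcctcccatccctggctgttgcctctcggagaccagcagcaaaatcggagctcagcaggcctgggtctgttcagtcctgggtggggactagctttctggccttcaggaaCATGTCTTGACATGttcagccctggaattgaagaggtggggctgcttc
Cdkn1a, downstream start: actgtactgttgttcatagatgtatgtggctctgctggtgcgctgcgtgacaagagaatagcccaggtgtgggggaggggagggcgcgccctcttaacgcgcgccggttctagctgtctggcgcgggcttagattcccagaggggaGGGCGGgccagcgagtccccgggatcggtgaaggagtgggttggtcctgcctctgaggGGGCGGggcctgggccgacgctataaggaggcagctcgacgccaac
Cdk4: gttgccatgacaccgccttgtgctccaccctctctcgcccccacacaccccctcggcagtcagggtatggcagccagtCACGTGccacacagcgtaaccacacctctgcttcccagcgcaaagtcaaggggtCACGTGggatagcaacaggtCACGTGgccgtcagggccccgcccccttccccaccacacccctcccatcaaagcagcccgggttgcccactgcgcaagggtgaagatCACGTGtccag

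The upstream window of Cdkn1a held the paired motif once, as CATGTCTTGACATG at chr17:29090931-29090944, from 48 to 35 bases before the start. Of all 32851 RefSeq windows of this length in the table, 0.490% held it. The downstream window held 2 GC boxes, which 32.7% of windows held at least once. The Cdk4 window held 4 E-boxes. An E-box was present in 6.02% of windows, and 4 or more were present in 7 windows (0.0213%). Windows were found for 7 of the 10 genes, and not for Ccnd1, Ccnd2 and Rb1. These matches describe the letters only, and no binding was measured.

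**Figure D1:**
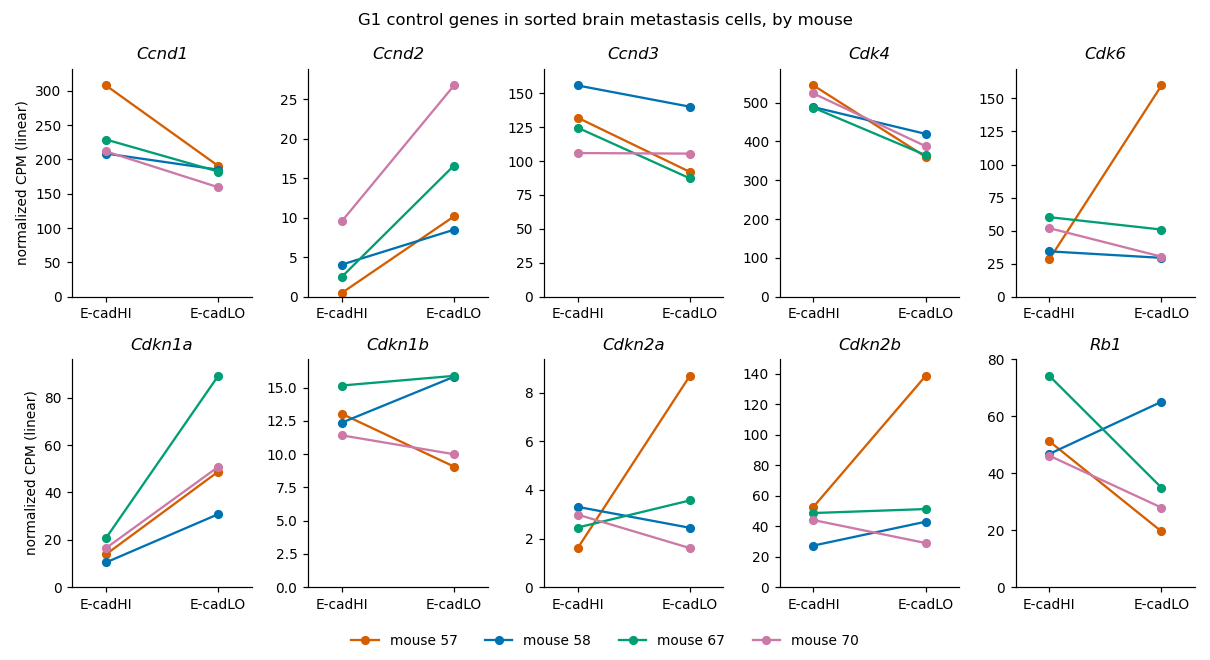
Normalized CPM (linear axes from 0) of the 10 genes in E-cadHI and E-cadLO cells, with points for libraries and a line joining the populations of each mouse. Cdkn1a lies above its E-cadHI value in each mouse, from 30.8 to 89.3 against 10.4 to 20.7, while the high Cdk6, Cdkn2a and Cdkn2b points belong to the E-cadLO library of mouse 57.

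Cdkn1a (ENSMUSG00000023067, chr17:29090979-29100722, plus strand) encodes p21, an inhibitor of cyclin-dependent kinases. In E-cadHI cells its normalized CPM (TMM-adjusted counts per 1000000) were 13.9, 10.4, 20.7 and 16.5 in mice 57, 58, 67 and 70. In E-cadLO cells they were 48.8, 30.8, 89.3 and 50.8. The populations did not overlap, since the lowest E-cadLO library was above the highest E-cadHI library. Such a separation with E-cadLO above was seen in 3.9% of all genes tested. The log2 ratios within a mouse, on CPM plus 0.5, were 1.78, 1.52, 2.08 and 1.59, with a mean of 1.74 ± 0.25 (SD, n = 4). The fitted log2 fold change was 1.84 (SE 0.34) without the block, with an adjusted p of 0.204 in edgeR, and 1.78 (SE 0.19) with the replicate block, with an adjusted p of 0.0239. DESeq2 gave adjusted p = 8.9e-05 without the block and 2.1e-13 with it, beside 2.19% and 7.57% of all genes called higher by that tool and 0.449% and 1.65% called lower. With no filter on low counts, edgeR without the block called Cdkn1a (adjusted p = 0.0471), beside 0.0764% of all genes called higher. When both libraries of a mouse were left out of the blocked fit in turn, the call was kept without mouse 57 (adjusted p = 0.00373) and mouse 58 (0.0379) and lost without mouse 67 (0.247) and mouse 70 (0.126), while the log2 fold change stayed between 1.68 and 1.86.

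The D-type cyclins differed in level by a wide margin. Ccnd1 (ENSMUSG00000070348, chr7:144929931-144939925, minus strand) had normalized CPM of 308, 209, 229 and 212 in E-cadHI cells of mice 57, 58, 67 and 70. In E-cadLO cells the values were 191, 185, 182 and 160. The E-cadLO libraries all lay below the E-cadHI libraries, as they did for 4.2% of all genes tested. The log2 fold change was -0.42 (SE 0.17), with adjusted p = 0.330 without and 0.227 with the replicate block in edgeR, so the difference did not pass the test. Without the E-cadHI library of mouse 57 it was -0.26. LTO1 overlaps Ccnd1 on the opposite strand (227 to 493 counts per library).

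Ccnd2 (ENSMUSG00000000184, chr6:127125162-127152193, minus strand) is the D-type cyclin best known from B cells, the ovary and neural progenitors. It had normalized CPM of 0.488, 4.07, 2.53 and 9.57 in E-cadHI cells of mice 57, 58, 67 and 70, and the lowest of these rests on 7 counts. The antisense gene 9330179D12Rik overlaps Ccnd2, with 0 to 20 counts per library. In E-cadLO cells the values were 10.2, 8.49, 16.6 and 26.8. Each mouse had more Ccnd2 in its E-cadLO cells, but the populations overlapped, because the E-cadHI library of mouse 70 lay above the E-cadLO library of mouse 58. Of all genes tested, 16.8% were higher in E-cadLO cells in 4 of 4 mice. The log2 fold change was 1.90 (SE 0.75; adjusted p = 0.322) without the block and 2.27 (SE 0.55; adjusted p = 0.120) with it in edgeR. DESeq2 called Ccnd2 only with the replicate block (adjusted p = 5.5e-04, against 0.112 without it). The edgeR fit with the block called it when mouse 57 was left out (log2 fold change 1.71, adjusted p = 0.0401).

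Ccnd3 (ENSMUSG00000034165, chr17:47505051-47599691, plus strand) had normalized CPM of 132, 156, 125 and 106 in E-cadHI cells and 92.0, 140, 87.2 and 105 in E-cadLO cells, in the same order of mice. The populations overlapped, and in mouse 70 they differed by -0.0058 on the log2 scale. Ccnd3 had a log2 fold change of -0.29 (SE 0.19, adjusted p = 0.493 in edgeR without the block), which was -0.19 without the E-cadHI and -0.44 without the E-cadLO library of mouse 58. Bysl overlaps Ccnd3 on the opposite strand (544 to 1139 counts per library). Being lower in 4 of 4 mice, as Ccnd1, Ccnd3 and Cdk4 were, was seen in 14.2% of all genes tested.

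**Figure D2:**
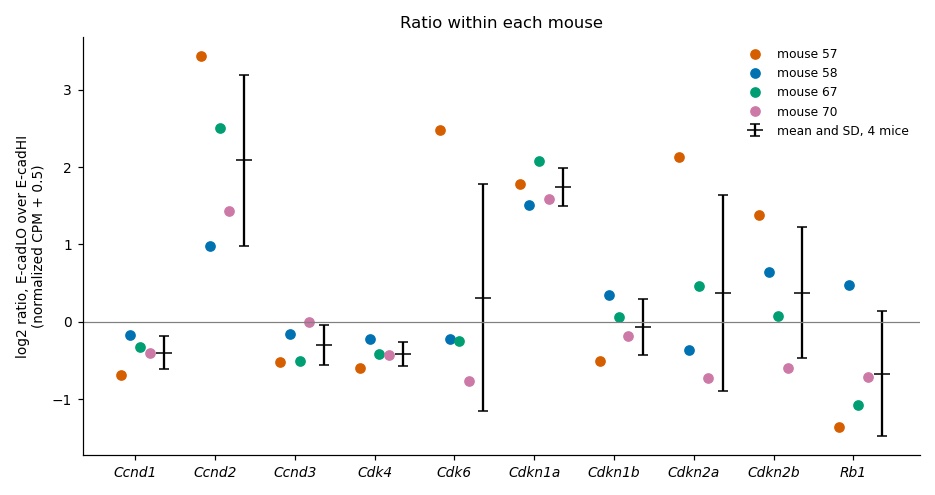
Log2 ratio of E-cadLO over E-cadHI cells (normalized CPM plus 0.5) for each gene, with points for the 4 mice and the mean and SD beside them. Cdkn1a has the narrowest spread among the genes with large ratios (1.52 to 2.08), and for Cdk6 only mouse 57 lies above 0 (2.48).

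Which D-type cyclin the cells held was read from counts per kilobase of annotated exon, so that genes of different length can be compared. On this scale Ccnd1 made up 76.7% ± 4.28 of the D-type cyclin level in E-cadHI cells and 73.5% ± 4.38 in E-cadLO cells (SD, n = 4; exact two-sided permutation p = 0.257, adjusted over the 4 shares tested 0.514). The Ccnd2 share was 0.0644%, 0.693%, 0.426% and 1.75% in the E-cadHI cells of mice 57, 58, 67 and 70. In the E-cadLO cells it was 2.08%, 1.61%, 3.50% and 5.84%. The Ccnd2 share was thus higher in the E-cadLO cells of 4 of 4 mice, by 2.52 percentage points on average (exact permutation p = 0.0571, adjusted 0.229). Over the mice the exact sign-flip p was 0.125, the smallest that 4 pairs allow, whereas 4 against 4 libraries can reach 0.0286. The Ccnd3 share was 22.6% ± 4.17 and 23.2% ± 4.11 (SD, n = 4; exact permutation p = 0.8). With the length of the longest annotated transcript in place of all exons, an alternative added after the values were seen, the change of the Ccnd2 share was 2.49 points, and as a share of counts with no length scaling it was 4.04 points.

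**Figure D3:**
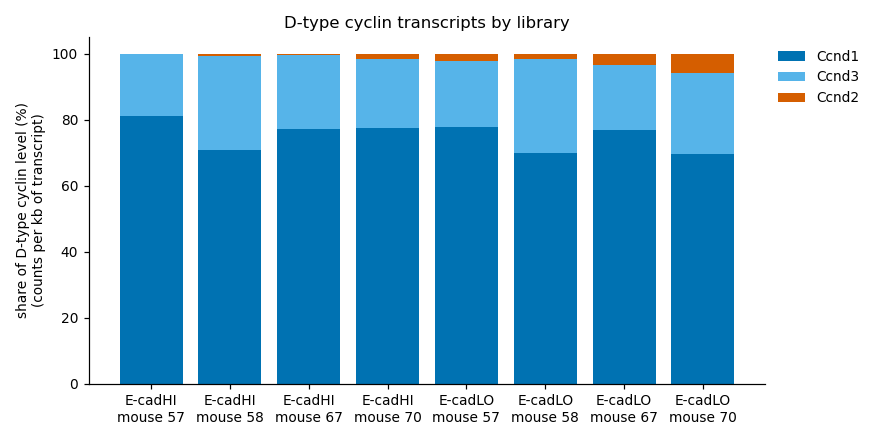
Share of each D-type cyclin in the summed D-type cyclin level of a library (%, counts per kilobase of exon), stacked to 100 for the 8 libraries. Ccnd1 takes from 69.5% to 81.2% of the level in each library, and the Ccnd2 segment is at most 1.75% in E-cadHI cells and 5.84% in E-cadLO cells.

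Cdk4 (ENSMUSG00000006728, chr10:127063534-127067920, plus strand), the kinase partner of the D-type cyclins, was the most abundant of the 10 genes per kilobase. Its normalized CPM were 544, 488, 487 and 523 in E-cadHI cells of mice 57, 58, 67 and 70. In E-cadLO cells they were 360, 419, 365 and 388, all below the E-cadHI libraries. The log2 fold change was -0.42 (SE 0.14), with adjusted p = 0.298 without and 0.223 with the replicate block in edgeR, and 0.0506 in DESeq2 without the block. Tspan31 lies on the opposite strand and overlaps Cdk4 (1278 to 3680 counts per library), and since the sources used here do not state whether strand was counted, reads of this pair may not be separated.

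Cdk6 (ENSMUSG00000040274, chr5:3341485-3531008, plus strand), the paralog of Cdk4, had normalized CPM of 28.3, 34.3, 60.2 and 51.9 in E-cadHI cells. In E-cadLO cells they were 160, 29.4, 50.8 and 30.3. Only mouse 57 was higher in E-cadLO cells, and the other mice were lower. The log2 fold change of 0.63 (SE 0.54, adjusted p = 0.572 in edgeR) became -0.26 without the E-cadLO library of mouse 57, and 0.999 and 0.993 without mouse 67 or 70. With the replicate block it was 0.24. Cdk4 made up 98.0% ± 0.70 of the level of both kinases in E-cadHI cells and 96.0% ± 3.65 in E-cadLO cells (SD, n = 4; exact permutation p = 0.4), and the lowest share, 90.7%, was that of the same E-cadLO library. As a share of counts with no length scaling, the difference was -6.31 points, against -2.01.

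The INK4 genes lie side by side on chromosome 4. Cdkn2b (ENSMUSG00000073802, chr4:89306289-89311032, minus strand), which encodes p15, had normalized CPM of 52.7, 27.3, 48.6 and 44.0 in E-cadHI cells of mice 57, 58, 67 and 70. In E-cadLO cells they were 139, 42.9, 51.2 and 28.9. Its log2 fold change of 0.60 (SE 0.45, adjusted p = 0.530 in edgeR) was -0.093 without the E-cadLO library of mouse 57, and 0.38 with the replicate block. Cdkn2a (ENSMUSG00000044303, chr4:89274471-89294653, minus strand) was low throughout, at 1.60, 3.30, 2.45 and 2.99 CPM in E-cadHI cells and 8.69, 2.44, 3.57 and 1.61 in E-cadLO cells. The gene count pools the transcripts of p16 and p19ARF, which share exons. Its log2 fold change was 0.66 (SE 0.59, adjusted p = 0.586 in edgeR), and -0.041 without the E-cadLO library of mouse 57. It was 1.01 without mouse 58 and 1.02 without mouse 70, and 0.39 with the replicate block.

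Cdkn1b (ENSMUSG00000003031, chr6:134920401-134925513, plus strand), the gene of p27, had normalized CPM of 13.0, 12.4, 15.2 and 11.4 in E-cadHI cells and 9.06, 15.8, 15.9 and 9.99 in E-cadLO cells. It was higher in 2 mice and lower in 2, with a log2 fold change of -0.035 (SE 0.28, adjusted p = 0.961 in edgeR).

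Rb1 (ENSMUSG00000022105, chr14:73183673-73325822, minus strand), the pocket protein that holds E2F factors, had normalized CPM of 51.2, 46.7, 74.1 and 46.1 in E-cadHI cells of mice 57, 58, 67 and 70. In E-cadLO cells they were 19.5, 65.0, 34.9 and 27.9. It was lower in 3 of 4 mice and higher in mouse 58. The log2 fold change was -0.57 (SE 0.35; adjusted p = 0.461) without the block and -0.69 (SE 0.31; adjusted p = 0.263) with it, with no call in either. Without the block it was -1.05 without mouse 58, -0.99 without the E-cadLO library of that mouse, -0.35 without mouse 67 and -0.38 without the E-cadLO library of mouse 57. Rcbtb2 and Lpar6 overlap Rb1 on the opposite strand, with up to 786 and 824 counts per library. Rb1 itself had 263 to 997 counts, so, as for Cdk4, reads of these genes may not be separated. The same limit applies to the overlaps named above for Ccnd1, Ccnd2 and Ccnd3.

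Ordered by level per kilobase in E-cadHI cells, Cdk4 (157 CPM per kb) was followed by Ccnd1 (50.8), Cdkn2b (31.0), Ccnd3 (14.8), Rb1 (9.06), Cdkn1a (4.33), Cdk6 (3.12), Cdkn1b (2.85), Cdkn2a (2.21) and Ccnd2 (0.443). In E-cadLO cells Cdkn1a reached 15.5 CPM per kb, beside Ccnd3 at 12.1 and Rb1 at 6.12. With the longest transcript as the length, Ccnd3 (33.6) stood above Cdkn2b (31.0) in E-cadHI cells, and in E-cadLO cells Cdkn1a (26.4) lay below Ccnd3 (27.5), so the order of these neighbours depends on the length used.

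The other genes of the pathway were described by lists, with no test over a list. The lists hold genes upstream and downstream of the 10 members, and the median log2 fold change of all genes tested was 0.065. Of all genes tested, 16.8% were higher and 14.2% lower in E-cadLO cells in 4 of 4 mice. A log2 fold change above 0 was seen for 55.1% of them. Among p53 and its targets, 18 of 19 genes were tested, of which 9 were higher in E-cadLO cells in 4 of 4 mice and none was lower in all mice. The list's median log2 fold change was 0.63, and 0.43 without the E-cadLO library of mouse 57. With the replicate block, edgeR called 2 of the 18, beside 0.728% of all genes tested called higher, and without it none.

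The called genes were Gdf15, a secreted stress cytokine of the TGF-beta family, and Plk2, a polo-like kinase induced by p53. Gdf15 rose from 6.29 ± 2.91 to 62.8 ± 49.2 normalized CPM (SD, n = 4), with a log2 fold change of 3.10 and adjusted p = 0.0239 in edgeR with the block (0.204 without it). Plk2 rose from 181 ± 49.1 to 674 ± 334 CPM (SD, n = 4), with a log2 fold change of 1.80 and adjusted p = 0.0239 with the block (0.204 without it). Mdm2, the ubiquitin ligase that degrades p53, was at 64.8 and 100 CPM (adjusted p = 0.143 in edgeR with the block, 0.0195 in DESeq2 with the block). Trp53 itself was at 217 ± 33.6 and 227 ± 66.2 CPM (SD, n = 4; adjusted p = 0.906 in edgeR). Of the 19 listed genes, 14 had a RefSeq window, and none held the paired motif shown for Cdkn1a. Only this strict form was searched, and only in these windows, so p53 elements of other forms or places would be missed.

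Among the 18 E2F target genes of S phase, 16 had a log2 fold change below 0. In 4 of 4 mice, 8 were lower in E-cadLO cells, beside 14.2% of all genes tested. The median log2 fold change was -0.35, and edgeR called none with or without the block. By mouse, the median log2 ratio was -0.57, -0.52, -0.47 and -0.0017 in mice 57, 58, 67 and 70, so mouse 70 showed almost no shift. Tk1, the thymidine kinase of the salvage pathway, was at 294 ± 48.3 and 179 ± 44.5 CPM (SD, n = 4; adjusted p = 0.138 in edgeR with the block, 0.0109 in DESeq2 with the block). Mybl2, a transcription factor of proliferating cells, had a log2 fold change of -0.80 (SE 0.37), and Gins2, a subunit of the replicative helicase complex, of -0.65 (SE 0.26).

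Of the cyclin E, cyclin A and CDK2 genes, 2 of 5 were lower in 4 of 4 mice and 1 was higher, beside 14.2% and 16.8% of all genes tested. The median log2 fold change was -0.44 (-0.26 without mouse 67). By mouse, the median log2 ratio was -0.36, -0.62, -0.38 and 0.20 in mice 57, 58, 67 and 70, so mouse 70 went the other way. Cdk2, the kinase that p21 and p27 restrain, had a log2 fold change of -0.61 (SE 0.18; adjusted p = 0.282 in edgeR without and 0.177 with the block). Ccna2, the cyclin of S phase and G2, had a log2 fold change of -0.44 (SE 0.21), and the phosphatase gene Cdc25a one of 0.32 (SE 0.21).

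Among 11 G2 and mitosis genes, 9 had a log2 fold change below 0, with a median of -0.32 (-0.21 without mouse 67). In 4 of 4 mice, 3 of the 11 were lower, beside 14.2% of all genes tested. The median log2 ratio was -0.28, -0.27, -0.48 and 0.093 in mice 57, 58, 67 and 70, so mouse 70 again went the other way. Cdk1, the mitotic kinase, was at 164 ± 21.8 and 103 ± 16.1 CPM (SD, n = 4; adjusted p = 0.253 in edgeR, 0.0196 in DESeq2). Aurkb, a kinase of chromosome segregation, had a log2 fold change of -0.57 (SE 0.17). Bub1, a spindle checkpoint kinase, was the only member of the list higher in 4 of 4 mice, with 0.41 (SE 0.28). Mki67, the gene of the proliferation antigen Ki-67, was at 117 ± 34.1 and 114 ± 16 CPM (SD, n = 4; adjusted p = 0.940 in edgeR).

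In the remaining lists, edgeR called no gene with or without the block. The median log2 fold change was -0.019 for 12 pocket proteins and E2F factors, with E2f5 higher in 4 of 4 mice (0.66, SE 0.28). It was 0.023 for 10 genes of the turnover of D-type cyclins and p27, where Cks1b, a cofactor of the SKP2 ubiquitin ligase, was lower in 4 of 4 mice (-0.38, SE 0.14) and Fbxo4 higher (0.21, SE 0.29). For 8 Polycomb repressors of Cdkn2a it was 0.048 (-0.060 with the replicate block), with Rnf2 higher (0.29, SE 0.15) and Suz12 lower (-0.12, SE 0.19) in 4 of 4 mice. Of 3 other CDK inhibitors, 2 were tested, with a median of -0.11 (0.37 with no filter, which adds Cdkn1c). Cdkn2c, which encodes p18, was lower in 4 of 4 mice (-0.60, SE 0.31), and Cdkn2d, which encodes p19, was higher in 3 (0.38, SE 0.23).

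**Figure D4:**
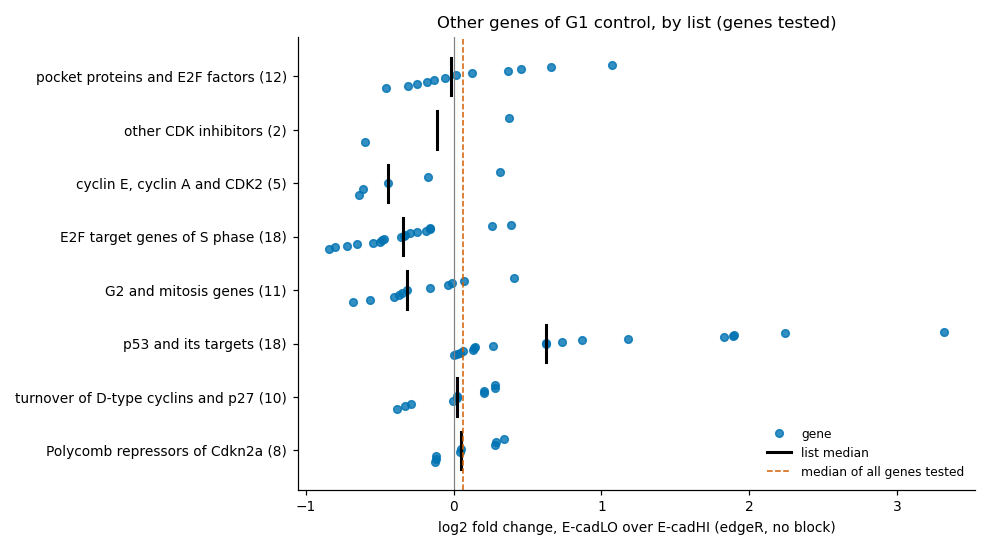
Log2 fold change of E-cadLO over E-cadHI cells (edgeR without the block) for each tested gene of 8 lists, with the list's median as a black bar and the median of all genes tested (0.065) as a dashed line. All 18 genes of p53 and its targets lie above 0 (with the block, Ccng1 and Zmat3 lie below it), and 16 of the 18 E2F target genes of S phase lie below 0. Of all genes tested, 55.1% lie above 0.

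Total counts ranged from 9102781 to 15769200 per library, and Gm42418 took from 2.23% to 14.4% of them. Cdh1, the gene of E-cadherin, was lower in the E-cadLO cells of 3 of 4 mice and higher in those of mouse 58 (181 against 132 CPM). Its log2 fold change was -0.17 (SE 0.33, adjusted p = 0.809 in edgeR without the block), so no difference was called here. That fit called 0% of all genes tested in either direction. The paper, which used DESeq2, places Cdh1 among the genes that differ between these populations and reports RT-qPCR beside its sequencing. Epithelial markers were present in both populations, with summed levels from 7503 to 10337 CPM in E-cadHI cells and from 5570 to 14100 in E-cadLO cells. Krt8 and Krt18 made up most of these sums. Of the 10 genes, 3 had a log2 fold change above 0, beside 55.1% of all genes tested. Epcam and Muc1 were lower in E-cadLO cells in 4 of 4 mice, and Elf3 was higher. Of all genes tested, 14.2% and 16.8% were so. Epcam was at 1344, 1134, 1291 and 1311 CPM in E-cadHI cells of mice 57, 58, 67 and 70. In E-cadLO cells it was at 290, 1101, 827 and 792 CPM. Markers of brain and stromal cells were above 0 in both as well.

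Marker levels of most other cell types listed moved with the groups. The sum of 12 microglia and macrophage markers ranged from 11.1 to 208 CPM in E-cadHI cells and from 170 to 794 in E-cadLO cells, and 11 of the 12 genes were higher in 4 of 4 mice. None of them was at 0 in all libraries of a group. Summed markers of astrocytes (192 to 1403 against 635 to 5110 CPM), oligodendrocytes (554 to 8594 against 1313 to 34385), neurons (31.6 to 132 against 56.5 to 420) and endothelium (41.1 to 75.7 against 55.6 to 98.1) were also higher in the E-cadLO cells of 4 of 4 mice. Flt1 made up most of the endothelial sum in every library, and Flt1 itself was lower in the E-cadLO cells of mouse 57. In that mouse, Gja1 made up 127 of the 192 CPM of astrocyte markers in E-cadHI cells and 536 of the 635 in E-cadLO cells. Aqp4 and Sox9 were lower in its E-cadLO cells, and the other astrocyte markers were higher. The summed markers of T cells and neutrophils (15.3 to 24.4 against 6.84 to 19.4 CPM) were higher in the E-cadLO cells of only 1 of 4 mice. That sum was mostly S100a8 (15.2 to 23.7 CPM in E-cadHI and 6.54 to 14.0 in E-cadLO cells). Every other gene of the list was at most at 1.75 CPM, and 1 of the 7 passed the filter on low counts. The sum therefore gives no measure of these cell types. In these bulk samples, a change in the number of cells of a type and a change of RNA per cell cannot be told apart.

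Ccnd2 and the microglia and macrophage markers were ordered nearly alike across libraries. The 3 libraries with the lowest marker sums (11.1, 58.7 and 84.5 CPM) held the 3 lowest Ccnd2 levels, and the pair with the highest sums (641 and 794 CPM) held the highest, 16.6 and 26.8 CPM. Itgam alone made up 117 of the 199 CPM of markers in the E-cadLO library of mouse 57, and 6.41 of the 208 CPM in the E-cadHI library of mouse 70. Without Itgam, a sum computed after the values were seen, these libraries had 82.0 and 201 CPM of markers, beside 10.2 and 9.57 CPM of Ccnd2, and the E-cadHI library of mouse 67 had 78.1 CPM of markers beside 2.53 CPM of Ccnd2. By the same measure of likeness over all genes tested, the log2 CPM of Ccnd2 over the 8 libraries was most like those of Lztfl1 (Pearson r = 0.988), Hpgds (0.986) and Laptm5 (0.982), of which Laptm5 is known from leukocytes. The likeness was not particular to microglia and macrophage markers. The summed astrocyte markers were lowest in the same 3 libraries (192, 335 and 513 CPM) and highest in the E-cadLO library of mouse 70 (5110 CPM). Their order differed elsewhere, with 1403 CPM in the E-cadHI library of mouse 70 and 909 in the E-cadLO library of mouse 67. The 8 libraries share mice and sorts, so these values are descriptive. The part of these markers in the Ccnd2 difference was not tested.

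Cdkn1a was higher, as the sum of microglia and macrophage markers was, in the E-cadLO cells of each mouse. Across libraries the order differed in part. The E-cadHI library of mouse 70 had 208 CPM of these markers and 16.5 CPM of Cdkn1a. The E-cadLO libraries of mice 57 and 58 had 199 and 170 CPM of markers, beside 48.8 and 30.8 CPM of Cdkn1a. Without Itgam, these E-cadLO libraries had 82.0 and 129 CPM of markers, and the E-cadHI library of mouse 70 had 201 CPM. The genes most like Cdkn1a over the 8 libraries were Nr4a2 (Pearson r = 0.968), Gcnt2 (0.959) and Fcgr1 (0.958), the last of which encodes an Fc receptor of myeloid cells. The part of these cell types in the Cdkn1a difference was not tested.

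**Figure D5:**
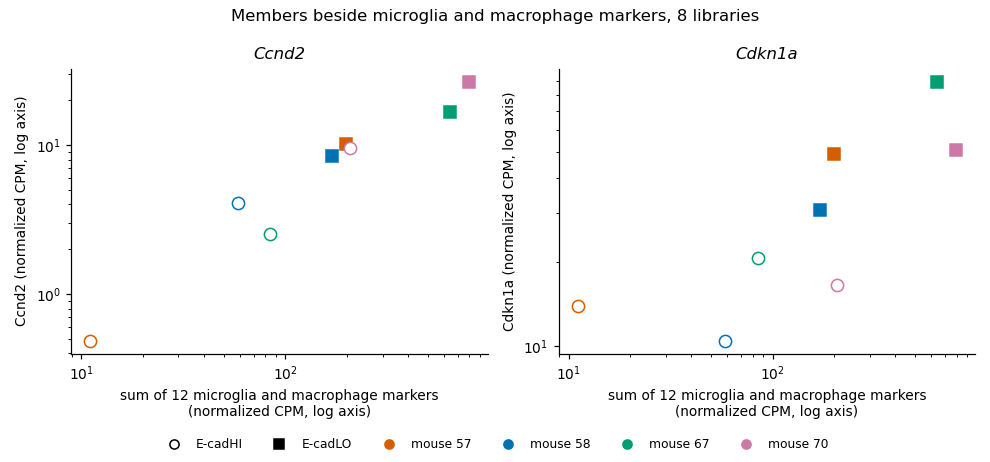
Ccnd2 and Cdkn1a against the summed level of 12 microglia and macrophage markers (normalized CPM, log axes), with open circles for E-cadHI and filled squares for E-cadLO libraries, colored by mouse. The E-cadLO libraries of mice 67 and 70 have the highest marker sums (641 and 794 CPM) and the highest levels of both genes. The E-cadHI library of mouse 70 has a higher marker sum than the E-cadLO libraries of mice 57 and 58, and less Cdkn1a. Itgam alone makes up 117 of the 199 CPM of markers in the E-cadLO library of mouse 57.

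The fibroblast markers stood apart in the E-cadLO library of mouse 57, at 1182 CPM against 22.3 to 50.1 in the other E-cadLO libraries and 6.99 to 22.9 in E-cadHI cells. This is the library with the high Cdk6 (160 CPM), Cdkn2a (8.69 CPM) and Cdkn2b (139 CPM), and it also had the lowest epithelial marker sum (5570 CPM). The part of this in the values of these genes was not tested. Over the 8 libraries, Cdk6 was most like Notch2 (Pearson r = 0.961), and Cdkn2a most like Mybl1 (0.977). Cdk4 was most like Ssr2 (0.989), Ccnd1 like Myd88 (0.972), Ccnd3 like Fam20c (0.986) and Rb1 like Tldc1 (0.984).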

How the data were processed

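The authors sequenced Illumina TruSeq mRNA libraries as single reads, mapped them with HISAT2 2.1.0 to mouse GRCm38 and deposited raw counts per gene; the paper names Icount as the counter and the submitters' processing notes name HTSeq. Strand handling is not given in the sources used here. The 365 entries without an identifier (at most 0.0954% of a library) were left out. edgeR 4.0.16 (R 4.3.3) used all 8 libraries, with TMM, filterByExpr, the quasi-likelihood test and p-values adjusted by Benjamini-Hochberg over 13598 genes. The methods of the study name no block, so the fit without it was the main design, and the mouse was added as a replicate block beside it, since the labels give both populations of a mouse its number. Deviations of same-mouse libraries correlated at 0.248 to 0.692 (4 pairs), other pairs at most at 0.144. Nothing labels libraries as repeats, and any pair of libraries differed by a chi-square of at least 27.7 per degree of freedom. DESeq2 1.42.0, its size factors, no filter and left-out libraries were alternatives. A floor of 3 counts equals 0.190 to 0.330 CPM and covers counting error only. Steps were tested on simulated data. Per-kilobase levels used all annotated exons; this and the longest-transcript alternative were defined after the files were in hand. The longest transcript was briefly made the main definition after the shares had been seen and was then set back, and no call on a share differed between them. The members and lists were chosen with earlier results of these data known. Named list genes were those called in either edgeR fit, otherwise up to 3 with the largest change and 1 direction in all mice; Mdm2, Trp53, Mki67, Cdkn2d and Itgam were named after their values were seen. Python 3.11, pandas 2.3 and matplotlib 3.10 made tables and figures.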

Additional observations from a re-analysis of the deposited data

Results flagged for a closer look

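With 46 groups of 4 values examined, 3 stood far from the rest by Dixon's ratio, where chance gives about 2.3. Cdk6 in the E-cadLO cells of mouse 57 was at 160 CPM, with the other E-cadLO libraries from 29.4 to 50.8. The log2 ratio of Cdk6 in mouse 57 was 2.48, with the other mice from -0.76 to -0.22. The median log2 ratio of the other CDK inhibitors in mouse 57 was -0.41, with the other mice from -0.040 to -0.015, and it rests on 2 genes.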

How the results depend on the processing

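Without the block, edgeR called no gene, with 1109 genes higher and 790 lower at an unadjusted p under 0.05. The replicate block gave 99 higher and 0 lower genes, DESeq2 298 and 61, DESeq2 with the block 1030 and 225, and no filter 23 higher. Genes called over the pathway lists numbered 2 with the block, 5 with DESeq2, 10 with DESeq2 and the block, and 2 with no filter. The Cdkn1a log2 fold change was 1.78 with the replicate block, 1.86 in DESeq2, 1.80 in DESeq2 with the block and 1.83 with no filter, and passed in each. Ccnd2 passed in DESeq2 with the block (2.33). With libraries or mice left out, genes called higher ranged from 0 to 425, lower from 0 to 24 and in the pathway lists from 0 to 2. The blocked fit called 425 higher and 24 lower without mouse 57, 63 and 3 without mouse 58 and 2 higher without mouse 70, and the fit without the block 13 higher without the E-cadLO library of mouse 70. Cdkn1a ranged from 1.49 to 2.04 (in the blocked fit 1.75 without mouse 57 and 1.86 without mouse 58), and Ccnd2 from 1.53 to 2.73 (1.71 in the blocked fit without mouse 57). Cdk6 ranged from -0.44 to 0.999 and Cdkn2a from -0.27 to 1.02. Cdk6 turned to -0.42, -0.44 and -0.26, and Cdkn2a to -0.21, -0.27 and -0.041, all without mouse 57 or its E-cadLO library. Cdkn2b ranged from -0.093, without that library, to 0.88. Cdkn1b ranged from -0.20 to 0.078 (-0.17 without mouse 58, without the block) and turned to 0.078, 0.055, 0.013, 0.047, 0.075 and 0.074. The Cdk4 share difference ranged from -2.83 to 0.042 points and the Ccnd3 share difference from -0.44 to 1.78; with no length scaling they were -6.31 and 0.11 points. In the filtered fits of all 8 libraries, apart from Cdkn1a in edgeR and Ccnd2 in DESeq2, the block changed no call on a member. The causes were not tested. With 4 mice, small differences were not detectable, and the tools disagree on how many genes pass.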
